A study of Mus musculus with 10 samples.

Results

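Open chromatin of neural progenitors (NSC) was set against that of the embryonic stem cells (ESC) of the same series, using the sites deposited for each. Members are the rows of the NSC list and the ESC list that lie on the 19 autosomes, 551649 NSC sites and 438802 ESC sites, or 990451 of the 1816946 sites in the 4 lists of the series. A site counted as shared where at least 1 bp of it overlapped a site of the other list, and values are given with and without a segment of chromosome 14 (mm9, 86000001 to 121000000) in which NSC sites are dense. The NSC are labelled ES-derived neural progenitor cells and were grown in N2B27 medium with FGF-2 and EGF; the ES line they came from is not named. The ESC are E14 cells (ES-E14Tg2a) on gelatin in N2/B27 medium with LIF, the MEK inhibitor PD032590 and the GSK3 inhibitor CH99021, a medium used to hold ES cells in an undifferentiated state. The labels give 2 samples per cell type and no genotype beyond the line, and 1 list per cell type was analysed, so differences between the cell types have no replicate check and carry no p-value. The lists of epiblast stem cells (EpiSC, expanded on MEF feeders and moved off them before crosslinking) and of embryonic fibroblasts (MEF, kept with serum) served as outside points of comparison. The title, cell type and list name of the MEF samples say MEF, but their source label names mNSC chromatin, a conflict that touches every MEF value below.

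FAIRE (formaldehyde-assisted isolation of regulatory elements) recovers DNA that is poorly crosslinked to protein, chiefly nucleosome-depleted promoters, enhancers and insulators. Promoters of widely used genes and many insulators stay accessible as stem cells become neural cells, whereas enhancers are mostly replaced: those held by the pluripotency factors Oct4, Sox2 and Nanog close, and others bound by neural SOX, POU, bHLH and NFI factors open. Sites could not be assigned to genes or promoters, because no annotation or sequence of mm9 was used here. Regions are therefore named by their mm9 coordinates, no base sequence is shown, and the labelled cell types could not be checked against marker genes.

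NSC had more sites and ESC had wider ones. The median width was 334 bp in NSC (quartiles 228 and 511) and 374 bp in ESC (245 and 608), and sites covered 248 Mb in NSC and 226 Mb in ESC. These are 10.0% of the autosomal span in NSC and 9.14% in ESC. The scores given by the authors had a median of 3.95 in NSC and 3.45 in ESC, each on its own scale. Without the chromosome 14 segment there were 533283 NSC sites and 436229 ESC sites. Read depth is unknown, and the length of a list can move with it.

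Most open sites were not shared. Of the NSC sites, 140063 overlapped an ESC site, which is 25.4% (exact 95% interval 25.3 to 25.5), and of the ESC sites 145893 overlapped an NSC site, which is 33.2% (33.1 to 33.4). Without the chromosome 14 segment the shares were 25.9% of NSC sites (25.8 to 26.0) and 33.0% of ESC sites (32.8 to 33.1). The intervals cover the counting of sites alone, and neighbouring sites are not independent. By bases, 55.7 Mb were open in both, which is 22.5% of the NSC bases, 24.6% of the ESC bases and 13.3% of the bases open in either. Merging the sites of both lists gave 411586 regions open in NSC alone, 292909 open in ESC alone and 130106 open in both, so that 15.6% of regions were common. For comparison, 30.5% of NSC sites overlapped MEF and 26.9% EpiSC, while 40.3% of ESC sites overlapped EpiSC and 24.5% MEF. NSC sites were thus in the ESC list less often than in the MEF list, on 17 of the 19 autosomes, or in the EpiSC list, on 15. ESC sites were in the NSC list more often than in the MEF list on all 19, and less often than in the EpiSC list on 16. The lists differ in length, and the shared counts of NSC and ESC were close, so the shorter list, ESC, takes the larger share. With NSC and ESC lists of equal length, 23.0% of NSC sites and 24.9% of ESC sites were shared, so these shares lay closer together. That ESC share was near the 24.5% of ESC sites in the full MEF list, so the order of NSC over MEF was hardly kept. Equal length left out the NSC sites of lowest score, which were often shared (40.5% of the lowest score decile). The change is thus not one of length alone. The whole-list shares in EpiSC and MEF were not recomputed at equal length.

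Where sites were shared, one site mostly met one site. A single ESC site lay under 90.3% of the shared NSC sites, 2 ESC sites under 8.38% and 3 or more under 1.28%. A total of 110709 pairs were one to one. In these the midpoints lay a median of 119 bp apart, 44.1% of them within 100 bp, and in 89.4% of pairs the overlap took up at least 50% of the shorter site. The NSC site was the wider of the pair in 54.4%. The score of a site in NSC said little about its score in ESC: across these pairs the rank correlation was 0.209 for scores and, separately, 0.209 for widths, and 0.214 for each without the chromosome 14 segment. The pairs are not independent and share whatever the genome position gives to both lists. In one-to-one pairs the NSC site stood at a median score percentile of 42.1 in its list and the ESC site at 59.8.

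A few pairs were near the top of both lists. By the highest lower rank of the 2 scores, the first was on chromosome 12, with an NSC site at 72869521 to 72869731 (score 36.4) over an ESC site at 72869493 to 72869727 (28.0). It was followed by chromosome 7, where the NSC site at 78556844 to 78558288 scored 30.8 and the ESC site at 78557001 to 78557451 scored 23.7. On chromosome 13 the 2 sites had almost the same limits, 22134766 to 22135121 in NSC (29.5) and 22134765 to 22135125 in ESC (26.2). The next were on chromosome 2, with an NSC site at 72072908 to 72073377 (33.0) and an ESC site at 72073098 to 72073323 (22.3), and on chromosome 5, with an NSC site at 88300554 to 88300926 (28.1) and an ESC site at 88300599 to 88300791 (23.7). EpiSC had a site at each of these 5 places, and MEF at all except the one on chromosome 5. These places were thus open in at least 3 of the 4 lists.

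Sharing followed the chromosomes unevenly in NSC and more evenly in ESC. The share of NSC sites found in ESC ran between 17.0% on chromosome 14 and 37.4% on chromosome 11, and the share of ESC sites found in NSC between 29.7% on chromosome 5 and 39.9% on chromosome 11. The shares went with the density of the other list. Across the 19 autosomes the NSC share had a rank correlation of 0.904 with ESC sites per Mb. For the ESC share and NSC sites per Mb it was 0.558. NSC sites outnumbered ESC sites on 18 of the 19 autosomes, by 1.26 to 1 over all. The ratio was highest on chromosomes 14 (1.89, with 32206 NSC and 16999 ESC sites), 18 (1.64) and 3 (1.58). It was lowest on chromosome 8 (0.802, with 26737 NSC and 33350 ESC sites), and even on chromosomes 17 and 5 (1.00 each). Chromosome 8 was also the only autosome on which the NSC share, 36.7%, was above the ESC share (exact 95% interval 29.5 to 30.5%). It was the only one with fewer NSC than ESC sites, and where shared counts are close the order of the shares follows the site counts. Without its segment, chromosome 14 moved to the other end of this order, with 13840 NSC and 14426 ESC sites, a ratio of 0.959, and shares of 26.8% in NSC and 27.0% in ESC.

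**Figure D1:**
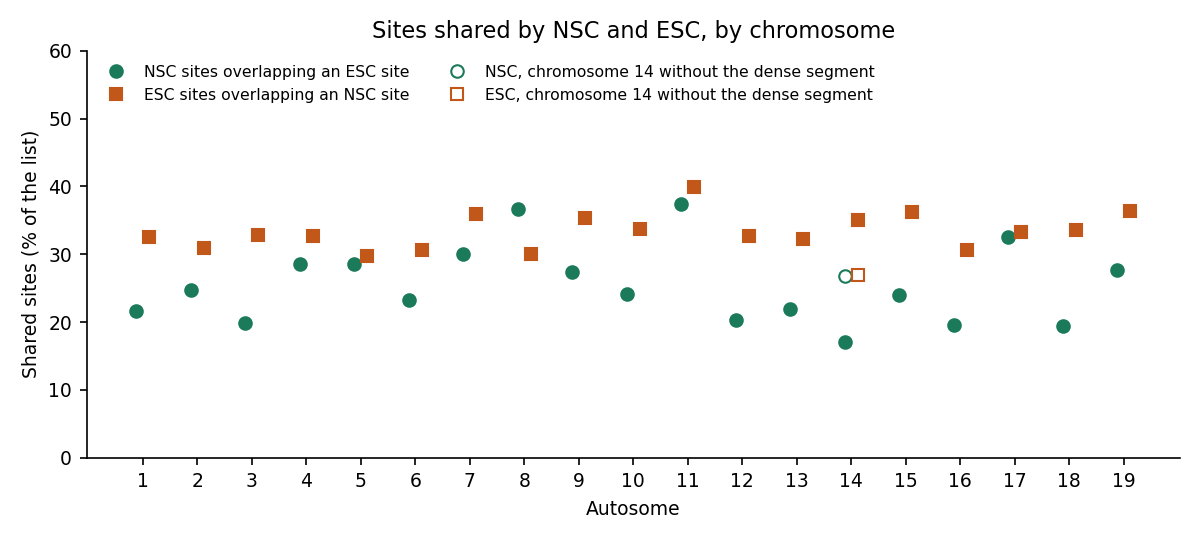
Percent of NSC sites that overlap an ESC site (circles) and of ESC sites that overlap an NSC site (squares) on each autosome, with open symbols for chromosome 14 without its dense segment. NSC shares spread between 17.0% and 37.4%, ESC shares between 29.7% and 39.9%, and on chromosome 14 both come to about the same value without the segment.

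Sites that the 2 cell types did not share were placed with the help of the other lists, which the definition of shared sites does not use. NSC sites absent from ESC were more often open in fibroblasts than in EpiSC: 25.8% overlapped a MEF site (25.7 to 25.9) and 16.4% an EpiSC site (16.2 to 16.5). ESC sites absent from NSC had the opposite order, with 32.1% in EpiSC (31.9 to 32.3) and 15.4% in MEF (15.3 to 15.6). Each of these orders held on 19 of 19 autosomes. Many unshared sites were in no other list, 262424 NSC sites (63.8%) and 174760 ESC sites (59.7%). Sites open in both cell types were more often in the other lists than unshared ones. Of the shared NSC sites 57.9% lay in EpiSC and 44.5% in MEF, and 31.1% in both. Of the shared ESC sites 56.8% lay in EpiSC and 42.5% in MEF, so EpiSC over MEF was not particular to the unshared ESC sites. Still, 28.7% of the shared NSC sites and 30.2% of the shared ESC sites lay in neither. Among sites 250 to 350 bp wide, 22.9% of unshared NSC sites were in MEF and 14.2% in EpiSC, and 28.0% of unshared ESC sites were in EpiSC and 14.6% in MEF. Of the shared NSC sites of that width, 47.4% were in EpiSC and 32.1% in MEF. Without the chromosome 14 segment the unshared NSC sites were in MEF in 26.2% and in EpiSC in 16.6% of cases.

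**Figure D2:**
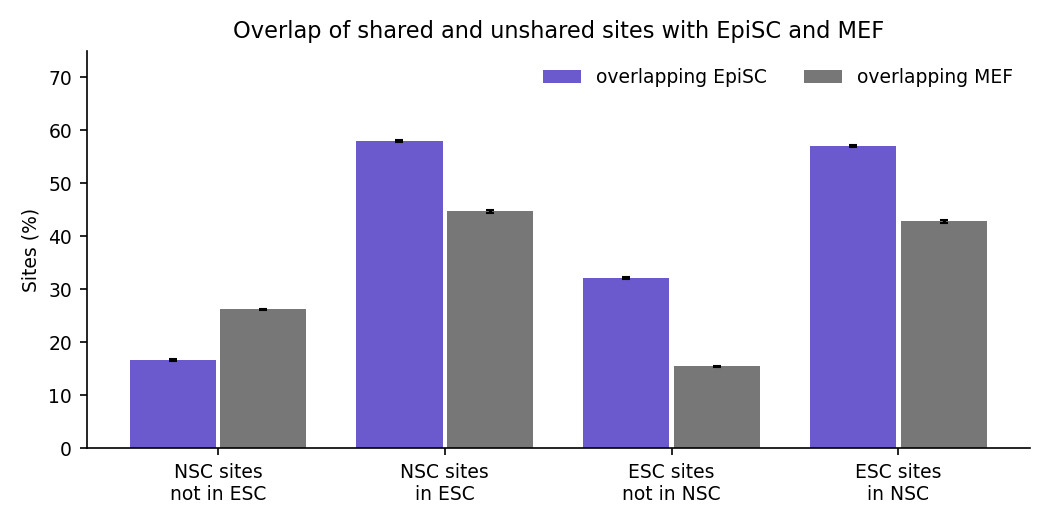
Percent of sites that overlap an EpiSC or a MEF site, without the chromosome 14 segment, for NSC sites absent from or present in ESC and for ESC sites absent from or present in NSC; error bars are exact 95% intervals. Unshared NSC sites were in MEF (26.2%) more often than in EpiSC (16.6%), unshared ESC sites the reverse (15.5% and 32.1%). Shared sites were above the unshared ones for both lists.

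Width went with sharing in both lists. Of NSC sites under 150 bp, 13.5% were shared, against 36.9% of those of 500 to 999 bp, 62.3% of those of 1000 to 1999 bp and 82.0% of the 7440 that were 2 kb or wider. In ESC the same classes had 24.7%, 35.3%, 48.1% and 61.0%, the last of 7785 sites. A wide site has more room for an overlap of 1 bp, so that part of this slope is arithmetical. Shared sites had a median width of 461 bp in NSC and 416 bp in ESC, and unshared ones 307 bp in NSC and 356 bp in ESC.

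Score and sharing ran in opposite directions in the 2 cell types. In NSC the shared sites had the lower scores, with a median of 3.56 against 4.07 for unshared sites, whereas in ESC the shared sites scored 4.26 against 3.17. The ratio of the shared to the unshared median was 0.875 in NSC and 1.34 in ESC, and 0.885 and 1.35 without the chromosome 14 segment. Within the segment the NSC order over all widths was the opposite, with 7.23 for shared and 6.75 for unshared sites. With autosomal sites limited to 250 to 350 bp, medians in NSC came to 2.46 for shared and 3.62 for unshared sites, a ratio of 0.679. In ESC they were 3.24 and 2.42, a ratio of 1.34. At that width the shared NSC sites had the lower median within the segment too, so the opposite order there was not kept. The NSC ratio lay between 0.614 and 0.772 on the 19 autosomes, and the ESC ratio between 1.21 and 1.46. Thus each direction held on every autosome at that width.

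With sites of 250 to 350 bp outside the chromosome 14 segment split into deciles by score, 35.1% of NSC sites in the lowest decile lay in ESC and 10.3% in the highest, with every step between them downward. In ESC 15.2% of the lowest decile lay in NSC and 44.8% of the highest, with a dip in the middle of the range, where the share was 27.7% in decile 6 and 35.7% in decile 5. With sites of every width, also outside the segment, the NSC slope was not steady: 40.9% of the lowest decile and 24.0% of the highest were shared, with 20.8% to 29.9% in those between. Among NSC sites of 250 to 350 bp, 30.7% of the highest decile and 19.6% of the lowest overlapped MEF, and with every width 45.5% and 23.8%. In EpiSC the shares at 250 to 350 bp were 16.6% in the highest decile and 25.6% in the lowest, but with every width they were 31.6% and 31.0%, so that the difference was not there over all sites. ESC sites of 250 to 350 bp and high score were more often present in all 3 other lists, with 55.2% of the highest decile in EpiSC and 32.3% in MEF, against 17.1% and 9.41% of the lowest.

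**Figure D3:**
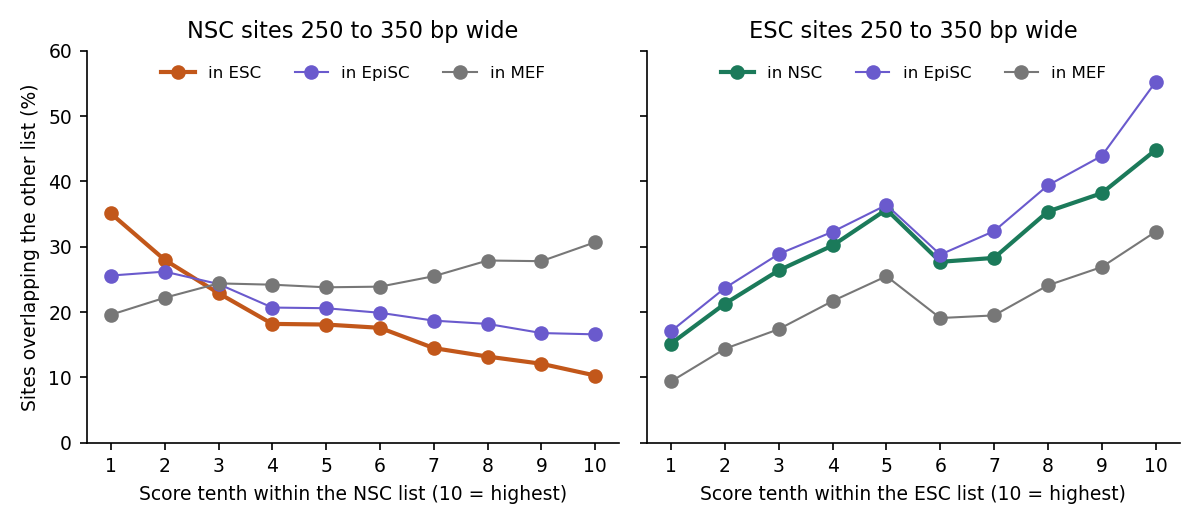
Percent of sites 250 to 350 bp wide that overlap each other list, by decile of score within the list, without the chromosome 14 segment (left NSC sites, right ESC sites). NSC sites of higher score were less often in ESC (10.3% in the highest decile) and more often in MEF (30.7%), while the highest ESC decile was above the lowest in every other list (44.8% in NSC), with a dip between.

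The density of open sites around a site went with its sharing. Windows of 100 kb in which any of the 4 lists had a site numbered 23717, and the rank correlation between NSC and ESC site counts across them was 0.353 (0.368 without the chromosome 14 segment, and 0.424 over all windows up to the last site, the denominator first planned). Of NSC sites in windows with 0 to 4 ESC sites, 2.71% were shared, and of those in windows with 50 or more ESC sites, 63.4%. For ESC sites the shares by NSC density were 4.19% and 65.1% (63.7% without the chromosome 14 segment). More sites of the other list in a window make an overlap more likely, and sites in windows are not independent. NSC sites in ESC-poor windows had the higher scores: the median was 4.76 with 0 to 4 ESC sites, 3.98 with 10 to 19 and 3.30 with 50 or more. ESC scores rose a little with NSC density, with medians of 3.20, 3.41 and 3.48 in the same classes. At 250 to 350 bp the ESC medians were 2.46, 2.52 and 2.80, and the NSC medians 4.25, 3.41 and 2.49.

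The opposite slopes of score were also present within windows of like density. Among NSC sites 250 to 350 bp wide in windows with 30 to 49 ESC sites, 45.3% of the lowest quartile group by score were shared and 28.4% of the highest. Among ESC sites of that width in windows with 30 to 49 NSC sites, the lowest quartile group had 29.5% and the highest 51.2%. The highest quartile group was below the lowest in all 6 density classes for NSC, and above it in all 6 for ESC.

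**Figure D4:**
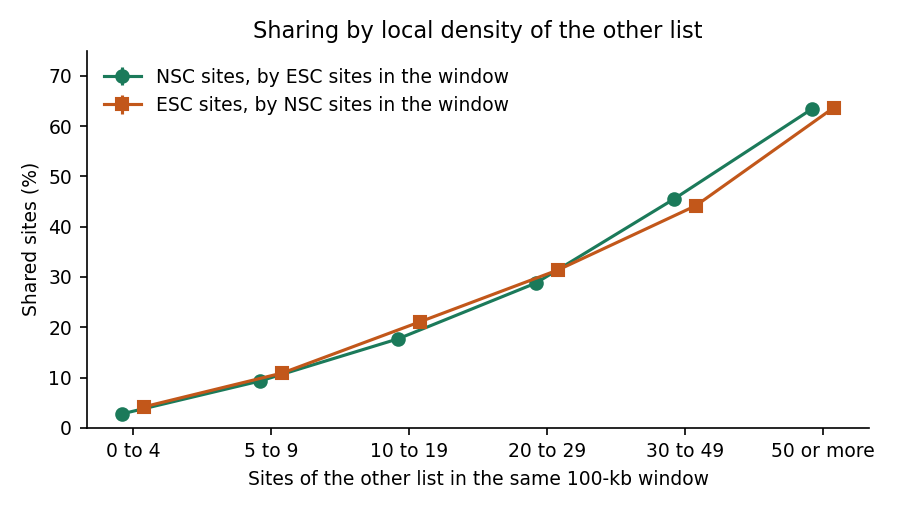
Percent of NSC sites shared with ESC by the number of ESC sites in their 100-kb window, and of ESC sites shared with NSC by the number of NSC sites, without the chromosome 14 segment; error bars are exact 95% intervals, mostly smaller than the symbols. Both lists climb together, to 63.4% for NSC and 63.7% for ESC in the densest class.

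Windows of 100 kb with NSC sites and no ESC site were far more common than the reverse. Of the 23717 windows, 1269 (5.35%) held 5 or more NSC sites and no ESC site, and 78 (0.329%) held 5 or more ESC sites and no NSC site. Without the chromosome 14 segment the numbers were 1223 and 78. With NSC and ESC lists of equal length, made by leaving out the NSC sites of lowest score, they were 1192 and 141. The 1269 windows held a median of 10 NSC sites, against 21 over all 23717 windows, so they were sparse in NSC too. The 78 windows held a median of 17.5 ESC sites, against 12 over all windows. Of the windows of NSC without ESC, 1266 held a MEF site (99.8%), with a median of 11 MEF sites, and 1101 held an EpiSC site (86.8%), with a median of 3. Over all 23717 windows, 98.8% held a MEF site, with a median of 16, and 95.8% an EpiSC site, with a median of 14. By median count these windows were thus below the general level in both lists, and further below it in EpiSC. Of the windows of ESC without NSC, 67 of 78 held an EpiSC site (85.9%), with a median of 15, and 63 a MEF site (80.8%), with a median of 4. Their EpiSC median was near that of all windows and their MEF median below it. Chromosome 16 had the highest share of windows of the first kind, 96 of 951 (10.1%), and chromosome 5 held 23 of the 78 of the second kind.

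Windows rich in NSC sites and empty of ESC sites were named outside the chromosome 14 segment. Chromosome 15 from 90100001 to 90200000 held 86 NSC sites, with 30 in EpiSC and 22 in MEF. Chromosome 15 from 32500001 to 32600000 held 74 NSC sites, with 7 in EpiSC and 35 in MEF, and from 63000001 to 63100000 it held 68, with 5 in EpiSC and 24 in MEF. Chromosome 10 from 38000001 to 38100000 held 69, with 4 in EpiSC and 25 in MEF, and chromosome 19 from 50400001 to 50500000 held 64, with 21 in EpiSC and 32 in MEF. In all 5 the fibroblasts were open too, and in 3 of them EpiSC had 7 sites or fewer.

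Of windows that held ESC sites in number but none of NSC, the leading ones included 2 adjoining windows on chromosome 5. There 120000001 to 120100000 held 69 ESC sites, with 27 in EpiSC and 9 in MEF, and 120100001 to 120200000 held 66, with 48 in EpiSC and 18 in MEF. Chromosome 4 had 58 ESC sites from 130600001 to 130700000, with 26 in EpiSC and 4 in MEF, and 56 from 152900001 to 153000000, with 21 in EpiSC and 1 in MEF. Chromosome 14 had 55 from 121600001 to 121700000, with 20 in EpiSC and 22 in MEF, less than 1 Mb beyond the end of the NSC-dense segment. EpiSC had at least 20 sites in each of the 5, and MEF had fewer than EpiSC in 4 of them.

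Neighbouring regions tended to be of one kind. After a region open in NSC alone the next region along the chromosome was of the same kind in 68.7% of cases, and after a region open in ESC alone in 56.2%, against shares of 49.3% and 35.1% of all regions. Ranked by their number of regions, the longest unbroken row of regions open in NSC alone outside the chromosome 14 segment lay on chromosome 16 from 27459654 to 28104699, with 228 NSC sites over 645 kb, 29 EpiSC sites and 86 MEF sites. The next were on chromosome 19 from 50777083 to 51322739, with 218 NSC sites, and chromosome 6 from 102783651 to 103269315, with 204. Of regions open in ESC alone the longest rows were on chromosome 5 from 119885050 to 120225603, with 194 ESC sites, 105 EpiSC sites and 47 MEF sites. It was followed by one on chromosome 4, between 152824990 and 153187951, of 174 ESC sites (97 in EpiSC, 9 in MEF), and another on chromosome 5, between 117006667 and 117441958, of 105. Rows of 50 or more regions, the segment included, numbered 365 for NSC and 32 for ESC, counts not recomputed with lists of equal length.

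Unshared sites lay at different distances from the other list. From an unshared NSC site the nearest ESC site was a median of 3147 bp away (quartiles 933 and 11252), and 27.0% had none within 10 kb. From an unshared ESC site the nearest NSC site was a median of 1602 bp away (596 and 3893), and 7.96% had none within 10 kb. Without the chromosome 14 segment the medians were 3010 bp for NSC and 1605 bp for ESC. The lists differ in length, and these distances were not recomputed at equal length.

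At the scale of whole megabases the balance of the lists swung widely. In 2348 bins of 1 Mb with at least 50 sites in the 2 lists together, the log2 ratio of NSC to ESC counts, each with 5 added, had a median of 0.45 and an SD across bins of 1.44. It was over 1 (2-fold toward NSC) in 891 bins (37.9%) and under -1 in 199 (8.48%). These cuts lie evenly about 0, whereas the median bin was already toward NSC, the longer list. The bins were not recomputed at equal length. Outside the chromosome 14 segment the highest ratios were on chromosome 19, where the bin 51000001 to 52000000 held 320 NSC and 6 ESC sites (log2 ratio 4.88) and the bin 50000001 to 51000000 held 441 NSC and 11 ESC sites (4.80). The bin 66000001 to 67000000 of chromosome 16 held 414 NSC and 10 ESC sites (4.80). The bin 48000001 to 49000000 of chromosome 18 held 429 NSC and 11 ESC sites (4.76), and the bin 51000001 to 52000000 of chromosome 12 held 256 NSC and 5 ESC sites (4.71). MEF had between 139 and 232 sites in each of these bins and EpiSC between 29 and 141.

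The lowest ratios belonged to bins with few NSC sites and many in ESC and EpiSC. Chromosome 14 from 122000001 to 123000000 held 22 NSC and 464 ESC sites (log2 ratio -4.12), with 325 in EpiSC and 125 in MEF. Chromosome 4 from 152000001 to 153000000 held 12 NSC and 275 ESC sites (-4.04), and chromosome 13 from 57000001 to 58000000 held 20 and 302 (-3.62). On chromosome 5, 127000001 to 128000000 held 13 NSC and 185 ESC sites (-3.40), and 116000001 to 117000000 held 47 and 509 (-3.31). EpiSC had 193 to 325 sites in each of these 5 bins and MEF 38 to 125.

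Bins past 2-fold joined into long runs, in which runs toward NSC were longer. There were 54 runs of 5 Mb or more toward NSC and 6 toward ESC. NSC had 1.26 sites per ESC site over all, so a bin passes the cut toward NSC more easily. Runs were not recomputed at equal length. These runs were chosen after their values were seen and are given as a description. Outside the chromosome 14 segment the longest toward NSC was on chromosome 16 from 60000001 to 78000000, with 5230 NSC and 800 ESC sites. NSC were at 1.30 times their own autosomal mean density there, ESC at 0.250 times, EpiSC at 0.431 times and MEF at 0.937 times. Runs of 14 Mb lay on chromosome 1 from 139000001 to 153000000 (2843 NSC and 688 ESC sites) and on chromosome 15 from 40000001 to 54000000 (3019 and 792). In these, NSC were close to their own mean, at 0.910 and 0.966 times, and ESC were low, at 0.277 and 0.319 times. The imbalance in these 2 runs was therefore one of few ESC sites rather than of many NSC sites.

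The longest run toward ESC was on chromosome 5 from 112000001 to 122000000, with 1217 NSC and 4526 ESC sites. Relative to their own autosomal means the densities were 0.545 times in NSC, 2.55 times in ESC, 1.82 times in EpiSC and 0.746 times in MEF. A further run on the same chromosome, from 126000001 to 132000000, held 356 NSC and 1716 ESC sites, with NSC at 0.266 times their mean and ESC at 1.61 times. In the first of these 65.3% of NSC sites were shared and 17.9% of ESC sites, and in the second 47.2% and 9.97%. Other runs toward ESC of 5 Mb or more were on chromosomes 2 (27000001 to 34000000 and 164000001 to 170000000), 7 (25000001 to 32000000) and 8 (122000001 to 127000000). ESC were at 2.10 to 2.62 times their mean in these 4, and NSC at 0.621 to 0.837 times.

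The chromosome 14 segment held 18366 NSC sites and 2573 ESC sites, or 525 per Mb in NSC and 73.5 per Mb in ESC. NSC sites covered 32.2% of its bases and ESC sites 2.90%. Shared sites were closer in number, 1773 in NSC and 2069 in ESC, so the shares went with the site counts. They were 9.65% of the NSC sites (9.23 to 10.1) and 80.4% of the ESC sites (78.8 to 81.9) of the segment. Its NSC sites had a median score of 6.80, against 3.88 outside it, and its ESC sites 3.32, against 3.45. Of the one-to-one pairs in the segment, the ESC site lay wholly inside the NSC site in 65.4%, against 27.9% of pairs outside it. The unshared NSC sites of the segment were less often in other lists, with 16.3% in MEF and 9.49% in EpiSC. The row of regions open in NSC alone with the most regions lay within it, from 110343157 to 110870935, with 383 NSC sites over 528 kb, no EpiSC site and 75 MEF sites.

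NSC counts stepped up at the start of this segment and down at its end, but were not dense throughout it. The 1-Mb bins just before it, from 81000001 to 86000000, held 43 to 66 NSC sites and 6 to 20 ESC sites each. The first bins within it, from 86000001 and 87000001, held 324 and 780 NSC sites and 57 and 148 ESC sites. Further back, the bins from 76000001 to 80000000 held 200 to 340 NSC sites each, a range that takes in the first bin of the segment. The 4 bins from 89000001 to 93000000 lay within it and held only 44 to 72 NSC sites each, with 11 to 27 ESC sites. At the far end the bin from 120000001 held 570 NSC and 249 ESC sites, the next 216 and 410, and the one after it 22 and 464. ESC sites inside the segment were most numerous in the bin from 99000001, with 297, and in the 3 bins from 118000001 to 121000000, with 239 to 292 each. NSC had 740 sites in that first bin and 570 to 669 in the others, against 812 in the bin from 98000001, where ESC had 19.

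**Figure D5:**
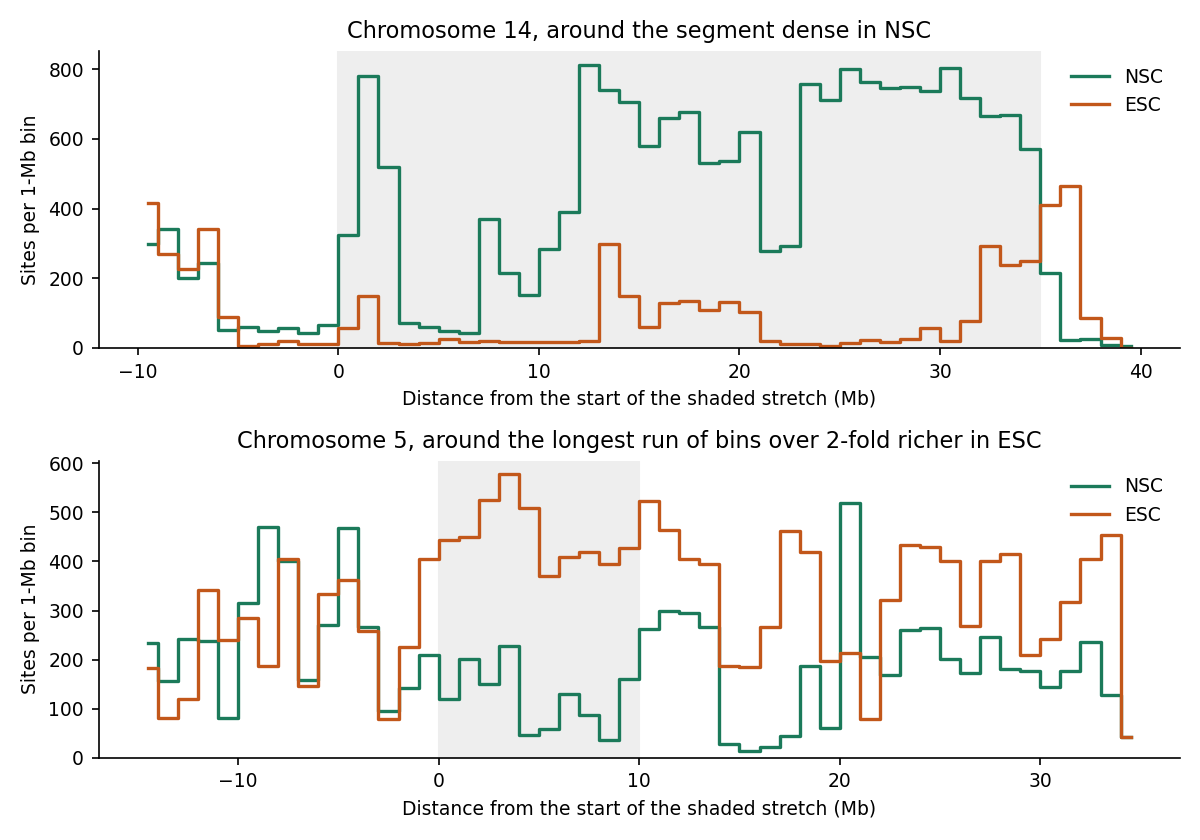
NSC and ESC sites per 1-Mb bin against distance from the start of the shaded stretch, for the chromosome 14 segment (upper panel) and the run of bins toward ESC on chromosome 5 (lower panel). Within the upper shaded stretch NSC reach 812 sites per bin and ESC at most 297; in the lower one NSC stay between 36 and 228 and ESC between 371 and 577.

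The sites of highest score in one list and absent from the other were these. In NSC these were chromosome 13 from 83874795 to 83875109 (score 40.5, nearest ESC site 2189 bp away, also in MEF), chromosome 15 from 92265091 to 92265218 (38.7, 13765 bp, in EpiSC), chromosome 10 from 57542119 to 57542872 (38.0, 7053 bp, in MEF), chromosome 8 from 7440118 to 7440782 (37.4, 778 bp, in MEF) and chromosome 6 from 29738719 to 29739908 (37.1, 543 bp, in EpiSC). In ESC they were chromosome 13 from 66781861 to 66781939 (34.6, nearest NSC site 211091 bp away) and from 65516061 to 65516201 (32.8, 109956 bp), chromosome 10 from 70303975 to 70304367 (31.2, 735 bp), chromosome 17 from 43213998 to 43214365 (30.3, 805 bp) and chromosome 8 from 107104446 to 107104813 (28.1, 3913 bp). Each of the 5 NSC sites was in 1 other list, and of the ESC sites only the one on chromosome 17 was, in EpiSC. The ESC sites on chromosome 13 stood alone, over 100 kb from any NSC site.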

How the data were processed

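FAIRE-seq sites of NSC and ESC were compared, with the EpiSC and MEF lists as outside points. Coordinates are on mm9 and CASAVA 1.8 was used, per the submitters' processing notes; caller settings, thresholds, the use of the genomic control and whether replicates were pooled are unknown here. Each list is, per the file headers, a browser track. Its rows give a chromosome, a start, an end and a deposited score of the authors' own making with no stated unit, and a further display score that was not used. Scores were compared within a list only. Depth is unknown.

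Lists were read as 0-based intervals and are printed 1-based. Sites were counted in 100-kb windows and 1-Mb bins by midpoint, and ratios of bins are log2 of counts with 5 added. A site belongs to the chromosome 14 segment where it overlaps it. Shares have exact (Clopper-Pearson) 95% intervals. The members, lists and naming rules were chosen with earlier results of these data known. Named are the 5 windows of each kind with most sites, the 5 highest-scoring unshared sites per list, the 5 best-ranked pairs, the 3 longest rows of regions per kind, the 3 extreme chromosomes at each end and the 5 extreme bins at each end; runs of bins were chosen after their values were seen. The planned gene lists were not used, for want of an mm9 annotation. Windows were planned over whole chromosomes, but those with no site in any list were left out of shares of windows and of the correlation, to match the earlier treatment of these data. Alternatives varied overlap, score, list length, merging, width, window size and the segment. Tools were Python 3.11.15 with scipy 1.17.1, numpy 2.4.6 and pandas 2.3.3; figures came from matplotlib 3.10.9. Overlap, merging and distances were checked on simulated lists and against bedtools 2.31.1, with 0 differences in 9 checks.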

Additional observations from a re-analysis of the deposited data

Results flagged for a closer look

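The sex chromosomes lie outside the autosomal comparison and hold sites of their own, which is what singles them out here. The X chromosome had 4219 NSC sites and 2992 ESC sites, of which 13.2% of NSC sites and 18.5% of ESC sites were shared, each below that list's lowest value on an autosome (17.0% in NSC and 29.7% in ESC). Sites were also few there: the autosome with fewest, chromosome 19, had 15335 NSC and 12057 ESC sites. On the autosomes shares were low where the other list was sparse, and the X was not compared at like density. The Y chromosome had no NSC site and 61 ESC sites.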

How the results depend on the processing

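No paired analysis was possible because 1 list stood for each cell type, and no replicate could be left out. Shares were counted as moved outside their main exact interval, counts of windows past 1.5 times, and score ratios and correlations, which have no interval, at any change in the printed digits. By these rules 7 values stayed and 42 moved, many of them slightly, and 0 score ratios crossed 1. The setting that keeps empty windows, which is the denominator first planned, was computed once the data had been seen. The intervals are narrow, and except where fewer sites or other window sizes make the change, the cause was not tested. An overlap of 50% of the shorter site gave shared shares of 22.5% in NSC and 29.4% in ESC; unshared NSC sites were then in MEF in 21.4% and in EpiSC in 14.3%, unshared ESC sites in EpiSC in 29.5% and in MEF in 12.9%, and the score ratio of shared to unshared sites was 0.896 in NSC and 1.38 in ESC. The 50% with the highest scores gave shared shares of 16.6% in NSC and 22.5% in ESC, with 2235 windows of NSC without ESC and 351 of ESC without NSC. Lists of equal length gave 23.0% in NSC and 24.9% in ESC, 141 windows of ESC without NSC and a window correlation of 0.253. With all 4 lists at equal length, unshared NSC sites were in MEF in 26.5% and in EpiSC in 16.1%, and unshared ESC sites in EpiSC in 36.8%. Merging sites under 200 bp apart gave 26.2% in NSC and 34.4% in ESC. Sites 250 to 350 bp wide gave 18.6% in NSC and 30.7% in ESC; of the unshared, 22.9% and 14.2% of NSC sites were in MEF and EpiSC and 28.0% and 14.6% of ESC sites in EpiSC and MEF, and the NSC score ratio was 0.679. Without the chromosome 14 segment the shares were 25.9% in NSC and 33.0% in ESC, unshared NSC sites were in MEF in 26.2% and in EpiSC in 16.6%, the score ratios were 0.885 in NSC and 1.35 in ESC, and the window correlation was 0.368. Windows of 50 kb gave 3499 of NSC without ESC, 355 of ESC without NSC and a correlation of 0.329; windows of 200 kb gave 251, 21 and 0.364. With windows that hold no site kept, the correlation was 0.424. In each setting the ESC share was the higher of the 2, and windows of NSC without ESC outnumbered the others. ESC was the shorter list in each setting except equal length. Where shared counts are close the shorter list takes the larger share, so the order of the shares adds little beyond list length.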
